A study of Mus musculus with 3 samples.

Results

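Binding sites of the nuclear receptors REV-ERB alpha and beta were described at 4 mouse liver loci that hold the genes of acute phase proteins: the Saa cluster (Saa1 and Saa2), the fibrinogen cluster (Fga, Fgb and Fgg), Crp and the Orm cluster (Orm1). The members are the ChIP-seq peaks whose centre lay in 1 of 4 fixed windows of the mm9 assembly. These windows are chr7:53950000-54035000 for Saa, chr3:82800000-82880000 for fibrinogen, chr1:174600000-174660000 for Crp and chr4:62970000-63050000 for Orm. They held 30 of the 24461 peaks in the REV-ERB alpha list and 26 of the 22097 peaks in the REV-ERB beta list. The members were chosen by position and by being called as a peak, which is a measured value, so the number and height of the members are given as a description, without a test.

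The study mapped both receptors by chromatin immunoprecipitation and sequencing (ChIP-seq) in livers of male C57BL/6 mice aged 20 weeks, entrained for 3 days to 12 hours of light and 12 of darkness and harvested at ZT8, that is 8 hours after lights on. The 3 groups were the REV-ERB alpha antibody, the REV-ERB beta antibody and liver input without antibody, with 1 library each. Strain, sex, age, tissue and harvest time were the same in all of them, and the labels give no genotype or drug. There is therefore no replicate error, no value here was tested across animals, and how many livers went into a library is not stated in the sources used here. The data hold no expression values, so the labelled tissue was not checked against marker genes, and no change in transcription of these genes can be read from them.

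Both receptors belong to the core circadian clock: they bind DNA, recruit the NCoR corepressor and repress transcription, and heme is their ligand. They recognise the hexamer AGGTCA, either with an A/T-rich stretch before it (the RORE) or as a pair of direct hexamers (the RevDR2). Acute phase proteins are plasma proteins made by hepatocytes whose level changes in inflammation, when interleukin 6 acts through STAT3 and interleukin 1 through NF-kappaB and C/EBP factors. Saa1 and Saa2 encode serum amyloid A, a lipoprotein-bound protein that rises steeply in inflammation. Fga, Fgb and Fgg encode the 3 chains of fibrinogen, the precursor of the fibrin clot. Crp encodes C-reactive protein, a pentraxin that is a weak acute phase reactant in the mouse, and Orm1 encodes orosomucoid, a plasma carrier of small molecules.

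The RefSeq upstream sequences used here cover 6 of the 7 genes (assembly GRCm38.p6, without an entry for Orm1). These coordinates belong to another assembly than the peaks, so no peak was placed relative to a gene start. In the 250 bases before the annotated start, 3 of the 6 genes hold AGGTCA on either strand, a letter match that 14.0% of the 32851 upstream sequences of the table share. The 3 are shown because they carry the core hexamer of the REV-ERB site, in capitals (as its reverse complement TGACCT in Saa1 and Saa2). The Fgg sequence is chr3:83007474-83007723 on the plus strand, Saa1 is chr7:46742981-46743230 on the minus strand and Saa2 is chr7:46751583-46751832 on the plus strand.
Fgg: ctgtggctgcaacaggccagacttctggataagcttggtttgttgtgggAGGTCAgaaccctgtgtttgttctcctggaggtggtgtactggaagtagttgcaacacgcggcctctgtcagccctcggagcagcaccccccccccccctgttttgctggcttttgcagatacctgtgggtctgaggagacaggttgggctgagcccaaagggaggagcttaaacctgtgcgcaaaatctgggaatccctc
Saa1: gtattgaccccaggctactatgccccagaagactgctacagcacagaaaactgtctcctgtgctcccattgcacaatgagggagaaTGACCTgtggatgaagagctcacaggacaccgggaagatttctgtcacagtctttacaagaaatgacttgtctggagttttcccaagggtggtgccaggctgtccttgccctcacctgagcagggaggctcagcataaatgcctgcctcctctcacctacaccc
Saa2: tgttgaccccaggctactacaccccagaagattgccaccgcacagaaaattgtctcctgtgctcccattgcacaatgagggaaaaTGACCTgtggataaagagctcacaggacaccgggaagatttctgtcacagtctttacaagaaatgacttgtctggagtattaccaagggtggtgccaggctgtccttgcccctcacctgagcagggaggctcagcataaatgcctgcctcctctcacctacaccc

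The hexamer lay 201 to 196 bases before the start of Fgg, 164 to 159 before that of Saa1 and 165 to 160 before that of Saa2. The Saa1 and Saa2 sequences were near copies: 238 of 251 aligned positions (94.8%) were identical, and the longest identical run was 65 bases. Motif matches in Saa1 and Saa2, here and below, are therefore not separate observations. The other pairs among the 6 genes had no identical run above 7 bases. How the authors placed reads that match both Saa genes is not given in the sources used here, and the part of such reads in the Saa tag counts was not tested. RefSeq also lists each of these genes under the other's name as a synonym, so a statement on Saa1 or Saa2 alone depends on the naming.

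Motifs of inflammatory and liver factors, searched on both strands, were found in the Fga, Fgb, Saa1 and Saa2 sequences, and in neither Fgg nor Crp. The STAT motif TTCNNNGAA was in Fga and Fgb (7.02% of all upstream sequences), and the C/EBP motif TTNNGCAA in Fga, Fgb, Saa1 and Saa2 (9.56%). Part of the HNF1 site, GTTAAT, was also in Fga and Fgb (6.43%). None of the 6 held the RORE (0.332% of all), the RevDR2 with 2 bases between its hexamers (0.00913%) or the kappaB motif (3.90%). A missing match says only that these letters are not in this stretch.

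The fibrinogen window held the densest binding of the 4. REV-ERB alpha had 12 peaks in these 80 kb and REV-ERB beta 13, which is 15 and 16.2 peaks per 100 kb, against 0.950 and 0.912 in the whole lists, over the stretch of each chromosome that carries peaks, leaving out chromosome 8. When these chromosomes were divided into consecutive windows of the same width, 0.0993% held at least as many alpha peaks and 0.0352% at least as many beta peaks. The Saa window of 85 kb held 7 alpha and 4 beta peaks, reached by 1.84% and 7.06% of windows of its width. The Orm window of 80 kb held 7 and 6, reached by 1.63% and 2.64%, and the Crp window of 60 kb held 4 and 3, reached by 4.22% and 7.31%. The window positions were chosen for these genes, so these shares describe the loci and test nothing.

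The fibrinogen peaks formed an island. The 12 alpha peaks spanned 49.0 kb with a median spacing of 2318 bp, and the 13 beta peaks spanned 51.6 kb with a median spacing of 2434 bp. Beyond the window the next alpha peak lay 638 kb to the left (chr3:82161731-82161883, 19 tags) and 765 kb to the right (chr3:83645101-83645253, 34 tags). The next beta peaks lay 706 kb to the left (50 tags) and 588 kb to the right (46 tags). Gaps of at least 500 kb made up 4.10% of all gaps between neighbouring alpha peaks and 4.68% of those between beta peaks. The first members inside the left edge held 62 alpha tags and 80 beta tags, and the last inside the right edge 154 and 289.

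The other windows had closer neighbours outside. At Saa the nearest outside peaks lay 16.1 kb (39 alpha tags) and 39.4 kb (17 beta tags) past the right edge, and the last members inside held 61 and 675 tags. On the left, the nearest outside held 27 alpha and 25 beta tags and the first inside 18 and 270. At Crp a further pair lay 14.3 kb (39 alpha tags) and 14.4 kb (85 beta tags) before the left edge, while the first members inside held 32 and 75 tags. On the right of Crp the nearest outside held 24 alpha and 16 beta tags, and the last inside 22 and 63. At Orm the nearest outside on the left held 35 alpha and 30 beta tags and on the right 21 and 112; the first members inside held 39 and 185 tags and the last 16 and 61.

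**Figure D1:**
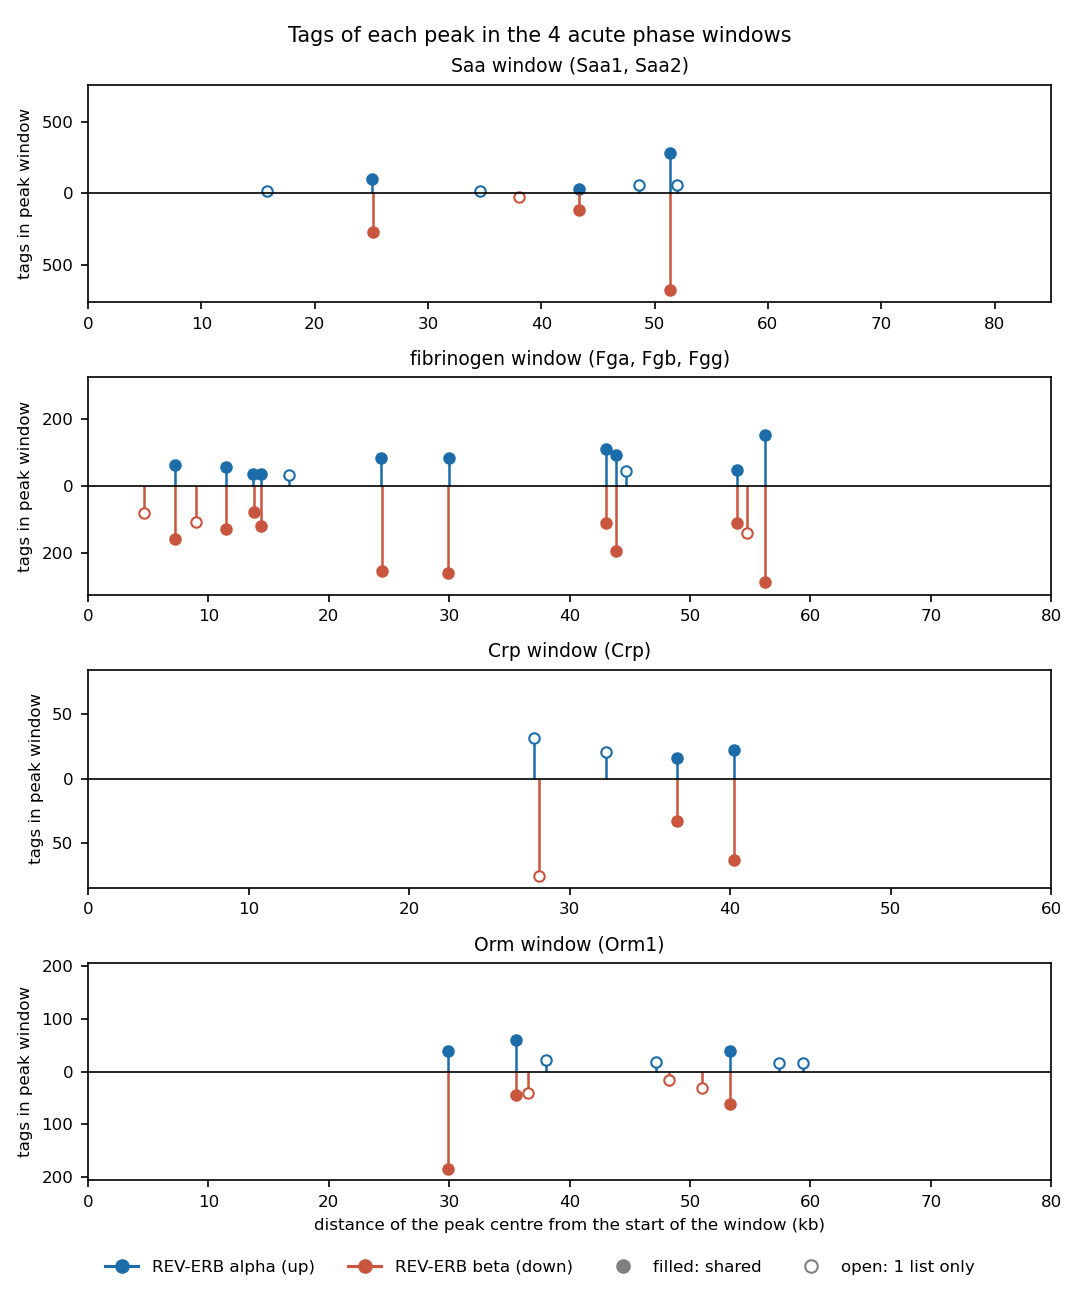
Tags in the peak window of every member, REV-ERB alpha upward and REV-ERB beta downward, against the distance of the peak centre from the start of each mm9 window in kb; filled points are shared by both lists and open points are in 1 list. The vertical scale differs between panels, and the tallest point is the Saa site with 279 alpha and 675 beta tags.

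Saa1 and Saa2 lie side by side in the RefSeq gene order, after Saa3 and Saa4 and before Hps5. The tallest member of all lay in their window. At chr7:54001320-54001472 the alpha library had 279 tags at 172 unique positions against 6 input tags, and at chr7:54001270-54001480 the beta library had 675 tags at 261 positions against 6 input tags. These peaks ranked 19 of 24461 in the alpha list and 2 of 22097 in the beta list, and their centres were 21 bp apart.

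A second Saa site, at chr7:53974979-53975131, held 102 alpha tags (rank 921) and, at chr7:53975016-53975226, 270 beta tags (rank 189), with 3 input tags in both windows. The next, at chr7:53993255-53993407, held 31 alpha and 118 beta tags, with 4 and 6 input tags. The 3 shared sites thus kept the same order of height in both lists. The beta list had 1 more peak, with 28 tags and 0 input tags, 3457 bp from the nearest alpha centre.

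The alpha list had 4 more Saa peaks. Those at chr7:53998514-53998666 and chr7:54001924-54002076 both held 61 tags, and lay on either side of the tallest site, the latter 604 bp from its alpha centre. The remaining 2 held 18 and 16 tags. In the 10 kb around the tallest site the alpha library had 699 tags and 3 called peaks, while the beta library had 1674 tags and 1 called peak. Outside the window of the tallest peak itself this left 420 alpha tags, which include those of the other alpha peaks, and 999 beta tags. The medians of this quantity over the whole lists were 171 and 153. The beta signal around the site was thus high beyond its called window, and an alpha peak without a beta partner there is absent from the beta list, not shown to be free of beta.

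Fgg, Fga and Fgb follow each other in this order in the RefSeq annotation, between Lrat and Plrg1. Every fibrinogen member of either list was above the median height of its list (27 tags for alpha, 39 for beta), which holds for 49.5% of all alpha and 49.3% of all beta peaks. Of the 12 alpha peaks 5 were in the top 10% of the list, which with ties holds 10.2% of all alpha peaks. Of the 13 beta peaks 10 were, against 10.1% of all beta peaks. Alpha heights ran from 34 to 154 tags with a median of 59, and beta heights from 78 to 289 with a median of 128. Input in the same windows was 0 to 5 tags for alpha and 0 to 10 for beta. Ranked by tags over input, 9 of the 12 alpha and 12 of the 13 beta peaks were above the middle of their list.

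The tallest fibrinogen site lay near the right end of the island. It held 154 alpha tags at chr3:82856133-82856285 (rank 243, 4 input tags) and 289 beta tags at chr3:82856106-82856316 (rank 145, 8 input tags), with centres 2 bp apart. A neighbour 2318 bp to its left, chr3:82853815-82853967, held 49 alpha and 111 beta tags. Between them the beta list had a further peak, chr3:82854653-82854863, with 140 tags, 1 input tag and no alpha partner; the nearest alpha centre was 867 bp away.

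To the right of the middle of the island both lists had a pair of peaks less than 1 kb apart. The left peak of the pair, chr3:82842941-82843093, held 111 alpha and 112 beta tags with 1 input tag in each window. The right peak, chr3:82843764-82843916, held 94 alpha and 194 beta tags, with 5 and 6 input tags. The alpha list had a further peak beside them, chr3:82844601-82844753, with 46 tags and no beta partner. The left peak was the only fibrinogen site with about as many alpha as beta tags.

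At 2 sites in the middle part of the island the raw beta count was far above the alpha count. Over all shared peaks the median ratio of alpha to beta tags was 0.688, so part of this gap is general. The site at chr3:82829918-82830070 held 84 alpha tags and 261 beta tags (rank 208), with 5 and 2 input tags, and its centres were 115 bp apart, the widest distance among the shared members. The site at chr3:82824279-82824431 held 84 alpha and 254 beta tags (rank 223), with 2 input tags in each and centres 85 bp apart. Both beta peaks were in the top 10% of their list, as were both alpha peaks.

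The left end of the island was made of closely spaced sites. Its shared sites were at percentiles 65.0 to 87.0 of the alpha list and 81.0 to 95.6 of the beta list. From left to right the shared sites held 62 and 159 tags (chr3:82807144-82807296, 0 input tags in both windows), 56 and 128 (chr3:82811422-82811574), 35 and 78 (chr3:82813664-82813816) and 37 and 119 (chr3:82814334-82814486), alpha first. Beta peaks without a partner, with 80 and 107 tags, lay to the left of and between them, and an alpha peak with 34 tags lay to the right. The peak with 80 beta tags also had the highest input of any member, 10 tags.

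By height, Crp was low in the alpha list only, with a median percentile of 36.3 there and 73.2 in the beta list. The list median was passed by 1 of 4 Crp peaks for alpha and by 2 of 3 for beta. None reached the top 10% of either list, which says little with so few peaks. Crp has Dusp23 and Apcs as its protein-coding neighbours in RefSeq; Apcs encodes serum amyloid P, the pentraxin that responds in the mouse. At chr1:174640184-174640336 the alpha library had 22 tags and the beta library 63, with 3 and 4 input tags and centres 1 bp apart. At chr1:174636591-174636743 they had 16 and 33 tags, with 1 input tag each. Farther left stood an alpha peak with 32 tags (chr1:174627673-174627825) and a beta peak with 75 tags (chr1:174627979-174628189); their centres were 335 bp apart, so they did not overlap and count as peaks of 1 list each. The remaining alpha peak, chr1:174632168-174632320, held 21 tags.

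Orm1 is followed by Orm3 and Orm2 in RefSeq, between Col27a1 and Akna. The Orm window had 1 tall beta peak: chr4:62999779-62999989 held 185 beta tags (rank 628, 4 input tags), where the alpha library had 39 tags (rank 7316, 3 input tags) at chr4:62999858-63000010. At the next site, chr4:63005447-63005599, the order was the opposite, with 61 alpha and 45 beta tags and 2 and 4 input tags. The last shared site, chr4:63023259-63023411, held 40 alpha and 61 beta tags with 0 input tags in both windows.

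The remaining 4 alpha peaks at Orm held 16 to 22 tags and the remaining 3 beta peaks 16, 32 and 41 tags. All 4 of these alpha peaks were below the median height of their list. The beta peak with 41 tags had 8 input tags. Peaks at the lowest score of the list, 14 for alpha and 12 for beta, numbered 3 among the 30 alpha members and 0 among the beta members. Of all alpha peaks 9.61% were at the lowest score, so the alpha count was near the share of the whole list. The share of all beta peaks was not counted. Of the 3 alpha members, 2 were at Orm and 1 at Saa.

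**Figure D2:**
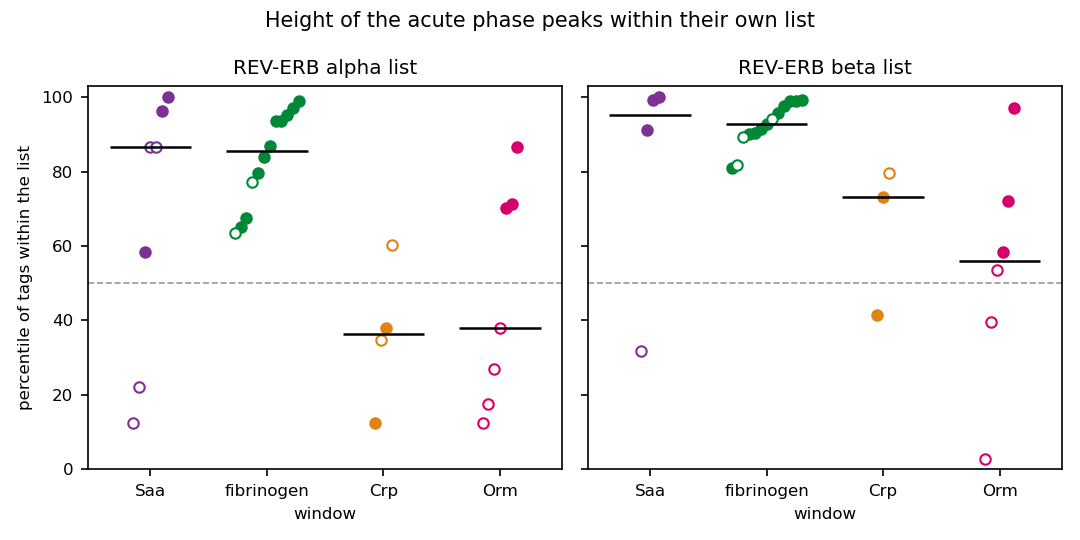
Percentile of each member's tags within its own list, by window, for REV-ERB alpha (left) and REV-ERB beta (right); filled points are shared, open points are in 1 list, the bar is the median of the window and the dashed line the 50th percentile. All fibrinogen members lie above the dashed line in both lists, whereas the medians of Crp and Orm lie below it for alpha, at 36.3 and 37.8, and above it for beta, at 73.2 and 55.9.

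Over all 4 windows, 18 sites were shared (windows overlapping by at least 1 bp). This was 60% of the 30 alpha members, against 57.8% of all alpha peaks outside chromosome 8, for which the beta list used here holds 0 peaks. It was 69.2% of the 26 beta members, against 60.3% of all beta peaks. The alpha share was near that of the whole list. By window, 10 of 12 alpha and 10 of 13 beta peaks were shared at fibrinogen, 3 of 7 and 3 of 4 at Saa, 2 of 4 and 2 of 3 at Crp and 3 of 7 and 3 of 6 at Orm. Centres of the shared members were 16 bp apart at the median, with 14 of 18 within 50 bp, against 28 bp and 75.2% of all shared peaks.

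Shared members were taller than members of 1 list. Their medians were 58.5 alpha and 124 beta tags, and those of the members in 1 list 21.5 and 58 tags. Over the whole lists, with the same split, the medians were 35 and 20 tags for alpha outside chromosome 8, and 52 and 27 tags for beta. The 12 alpha members without a partner held 16 to 61 tags and the 8 such beta members 16 to 140. A centre of the other list lay within 1 kb of 3 and 2 of them. The share of all peaks without a partner that had such a neighbour was not counted, so these counts are not a trait of the loci.

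At most shared acute phase sites the balance between the libraries leaned to REV-ERB beta. The ratio of alpha to beta tags was set against its median over all 13314 shared peaks, 0.688, because it mixes library depth, window size and binding. Of the 18 shared members 16 were below this median and 2 above it, while of all shared peaks 49.9% were below. By window, 3 of 3 were below at Saa, 9 of 10 at fibrinogen, 2 of 2 at Crp and 2 of 3 at Orm. Sites of the same window lie close together and are not shown to be separate observations. With a size of 2-fold from the median in place of a test, 5 of 18 leaned to beta and 0 to alpha, against 9.71% and 8.40% of all shared peaks. The median member was at -0.69 on the log2 scale. By height, 16 of the 18 members were above the median of all shared peaks (the geometric mean of both tag counts), and of such tall peaks 56.6% were below the same median ratio and 12.5% at least 2-fold toward beta.

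**Figure D3:**
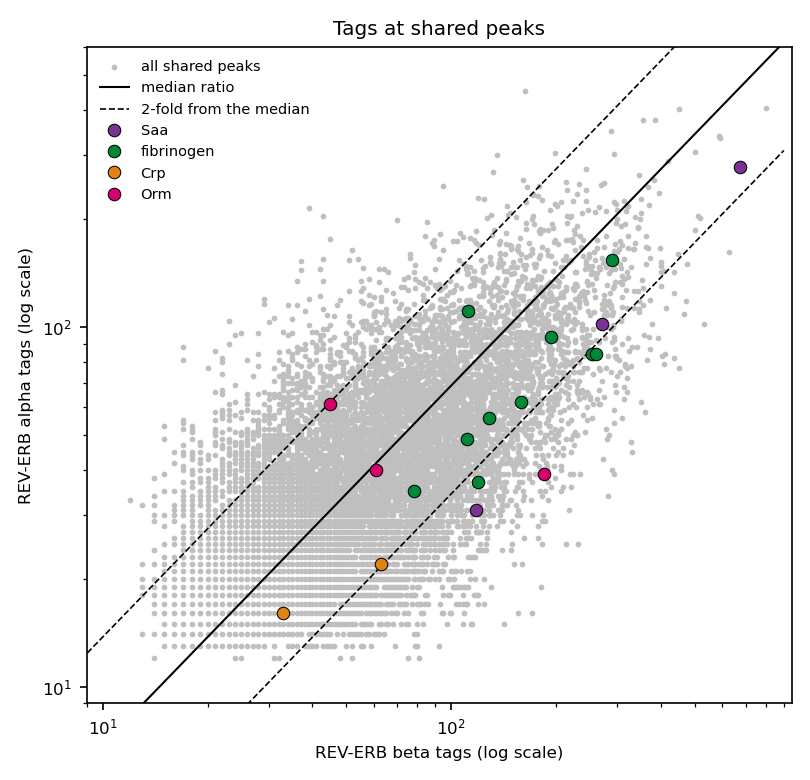
Alpha against beta tags at shared peaks, both on log axes; grey points are all 13314 shared peaks, coloured points the 18 shared members by window, the line is the median ratio of 0.688 and the dashed lines are 2-fold from it. Of the coloured points 16 lie below the line, 5 of them past the lower dashed line.

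The sites that leaned most to beta were in 3 windows. The Orm site with 39 alpha and 185 beta tags had a ratio 3.26-fold toward beta of the median (log2 -1.71, exact 95% interval -2.24 to -1.20). The Saa site with 31 and 118 tags was 2.62-fold toward beta (log2 -1.39, -2.01 to -0.81). At fibrinogen, the sites with 37 and 119, 84 and 261, and 84 and 254 tags were 2.21-fold, 2.14-fold and 2.08-fold toward beta. The interval of each ratio comes from the exact (Clopper-Pearson) interval of alpha tags among the tags of both libraries. These intervals cover counting error only, compare these 2 libraries and not the receptors, and may be too narrow because tags at 1 position need not be separate molecules.

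The tallest Saa site leaned to beta by less than 2-fold, with a ratio 1.66-fold from the median (log2 -0.73, -0.94 to -0.53). The sites on the other side of the median were the fibrinogen site with 111 alpha and 112 beta tags, at 0.53 (0.14 to 0.92), and the Orm site with 61 and 45 tags, at 0.98 (0.40 to 1.57). In all, the interval lay below the median ratio at 14 of the 18 sites and above it at 2, against 21.5% and 17.9% of all shared peaks. It included the median at 1 Crp site (16 and 33 tags) and 1 Orm site (40 and 61 tags). The shares are not like for like, because intervals are narrower at taller peaks and 16 of the 18 members were above the median height. The shares among tall shared peaks were not counted. Tags summed over the shared sites of a window gave log2 values of -0.83 at Saa (-0.99 to -0.66), -0.61 at fibrinogen (-0.74 to -0.49), -0.80 at Crp (-1.38 to -0.24) and -0.52 at Orm (-0.82 to -0.22). The window intervals overlap between all 4, and at Orm the sum was made of sites that lay on both sides of the median.

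The lean was about as large without repeated tags: at unique positions 16 of 18 members were again below the median ratio and 5 at least 2-fold toward beta, where 7.64% of all shared peaks were. These 5 were not all the same sites as by tags. At unique positions the fibrinogen site with 84 and 254 tags was at -0.74, and the one with 35 and 78 tags was at -1.04. Toward alpha there were 0 members, against 6.53%. Beta members had a median of 1.66 tags per unique position, against 1.60 in the whole list, and alpha members 1.22 against 1.17.

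The surroundings of the peaks leaned the same way at fibrinogen. In the 10 kb around each peak, less the window of that peak, the 10 shared fibrinogen sites held 205 to 650 alpha tags and 330 to 970 beta tags; these counts include neighbouring peaks. Against the median ratio of this quantity over all shared peaks, all 10 fibrinogen sites were below it, with log2 values from -1.06 to -0.08. Over all windows 15 of 18 were below this median, which splits all shared peaks evenly, and 2 of 18 were at least 2-fold toward beta, against 2.55%. The 10 kb stretches of neighbouring sites overlap, so these 10 values are not separate measurements. The tallest Saa site had the lowest value, -1.28, and the 3 Orm sites had -0.10, 0.01 and 0.61.

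Set against their own surroundings, the members lay on both sides of the median. With the density of tags in the peak window over that in the rest of the 10 kb, 10 of 18 were below the median ratio, 2 were at least 2-fold toward beta (8.31% of all shared peaks) and 0 toward alpha (8.18%). The fibrinogen median on this scale was -0.01, but the rest of the 10 kb again includes neighbouring peaks. The fibrinogen median was -0.65 for tags in the peak window and -0.61 for the rest of the 10 kb. It was -0.35 for only the tags outside the called peaks of the same list, a setting chosen after the data were seen. The 2 sites past 2-fold by density were the Orm site with 39 and 185 tags (log2 -1.60) and the Saa site with 31 and 118 tags (-1.44), the same 2 that were most extreme by tags. The tallest Saa site changed side, to 0.55. The tags around the peaks differed between the loci. In the rest of the 10 kb the median fibrinogen member had 539.5 alpha or 726 beta tags and the median Saa member 251 or 271.5, against list medians of 171 and 153. At Crp these medians were 165 and 217, and at Orm 203 and 172.5. Mean input in the member windows was 2.93 tags for alpha and 3.69 for beta, against 2.66 and 3.59 in the whole lists.

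**Figure D4:**
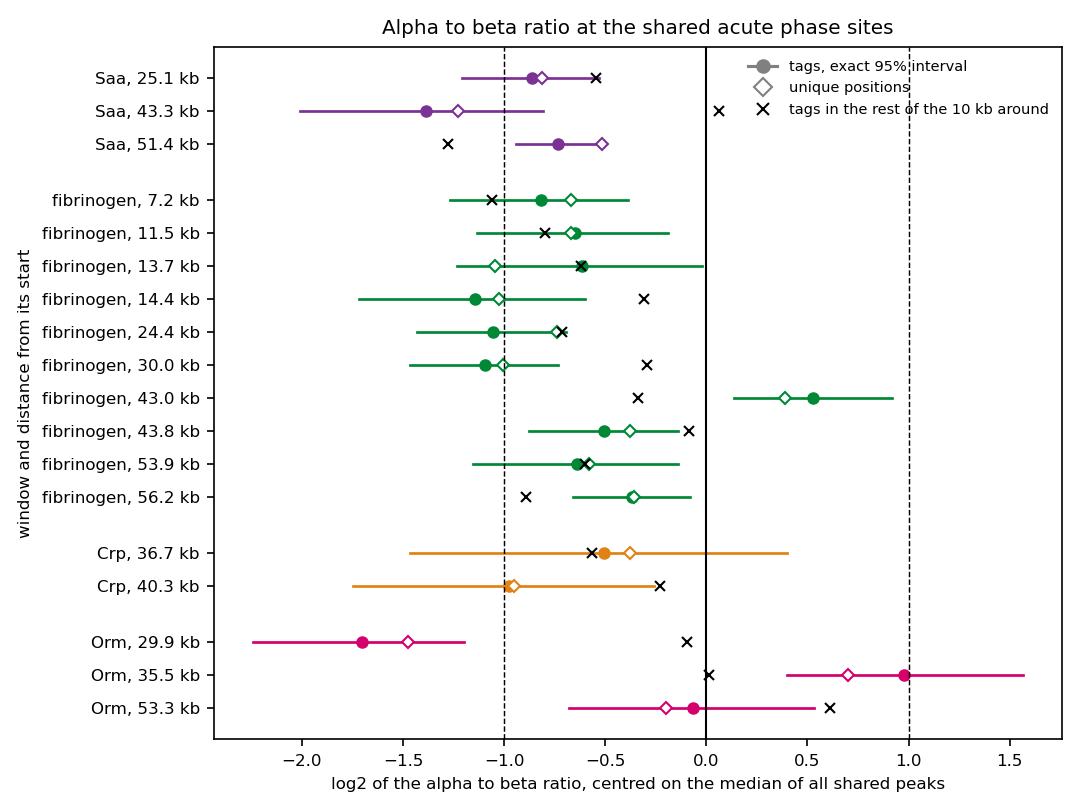
Log2 of the alpha to beta ratio at each of the 18 shared members, centred on the median of all shared peaks for each measure; circles with exact 95% intervals are tags in the peak window, diamonds are unique positions, crosses are tags in the 10 kb around less the peak window, and dashed lines are 2-fold. Rows give the window and the distance from its start; 16 circles lie left of 0, and the crosses of all 10 fibrinogen rows do too.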

How the data were processed

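Fixation used disuccinimidyl glutarate (2 mM, 30 minutes) and then formaldehyde (1%, 10 minutes), per the labels' protocols. Bowtie, HOMER and mm9 are named in the submitters' processing notes; the sources used here do not give versions, read filters or library totals. The deposited lists, 1 per antibody, give raw tag counts in windows of 153 bp (alpha, 910669 tags in all) and 210 bp (beta, 1227074 tags), in 10000 bp around each peak, and of the input. The authors' peak score is deposited as a whole number; the deposited FDR, treated as a p-value, is 0 in every row and was not used.

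Members and lists were chosen with earlier results of these data known. Every peak of the windows is named or counted. Each shared peak, and the tallest peak of each list in a window, has its tags printed, and only some have input tags and ranks. Peaks were paired if they overlapped by at least 1 bp. Ratios were centred on the median of the shared peaks of each measure; for tags over input, 1 was added to both. Percentiles count peaks with at most as many tags. The planned description of peak sequences and of other acute phase genes needs mm9 sequence and annotation and was not made. The steps for pairing and ratios were run on simulated data, with a shifted copy of the alpha list and planted shifts larger than 2-fold. Recovery of leans near 2-fold was not tested. The alternatives are given in the closing section. Software was scipy 1.17.1, pandas 2.3.3 and numpy 2.4.6 under Python 3.11.15; figures used matplotlib 3.10.9.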

Additional observations from a re-analysis of the deposited data

How the results depend on the processing

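With each window extended by 20 kb, the Crp window held 7 alpha and 5 beta peaks in place of 4 and 3. Keeping only peaks whose tags were 8 times the input or more left 2 alpha peaks at Crp and 4 at Orm. The 5 shared members at least 2-fold toward beta became 2 with density over the surroundings and 3 with the centre of the tall shared peaks. Toward alpha, 0 became 1 with tags over input, against 13.8% of all shared peaks, and 1 with the centre of the tall shared peaks. Toward beta, 5 became 7 with tags over input, against 13.2% of all shared peaks. With the centre of the tall shared peaks, the share of all shared peaks was not counted. The 16 members below the median ratio became 10 with density over the surroundings. A further 2 settings were chosen after the data were seen. With only the tags around the peak window the count toward beta was 2, against 2.55% of all shared peaks. With only the tags outside the peaks of the same list it was 1, and the share of all shared peaks was not counted. The latter setting removes different stretches from each library. The other counts stayed within 1.5 times under the alternatives run, and the 18 shared members became 16 to 19 with other overlap rules. None of the 5 site ratios past 2-fold changed sign with unique positions, tags over input, density or the other centre. In none of these settings did all 5 stay past 2-fold. Among all 18 sites, 6 changed sign with density over the surroundings (5 of them with an exact interval that excluded the median), 1 with tags over input, 1 with the centre of the tall shared peaks and 0 with unique positions. By tags over input 13 members crossed the middle of their list in rank, and by unique positions 1 did. The shares of all peaks that changed sign or crossed the middle were not counted. No paired analysis was possible because there was only 1 library per antibody; for the same reason none could be left out. The lists have a lowest score, so weaker sites are not seen.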
